A study of Mus musculus with 288 samples.

Results

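The genes described here are 10 markers of the 2 main neuron types of the cerebellar cortex, 10 of the 35904 genes in the deposited tables. They were chosen by name. Pcp2, Calb1, Car8, Itpr1 and Slc1a6 mark Purkinje cells, and Cbln1, Cbln3, Neurod1, Zic1 and Zic2 mark granule cells. Their levels were read in 288 libraries, first in the cerebellum and then in liver, lung, kidney, muscle and heart. The mice were wild-type male C57BL/6J, 8 weeks old. In the normoxia group they breathed room air, and in the intermittent hypoxia (IH) group oxygen cycled between 21% and 8% during the light, inactive phase for 7 days. Both groups then spent 2 days in constant darkness in room air, and tissues were taken every 3 hours over 24 hours, at times labelled 1:30 to 22:30. Each time point and treatment had 3 replicates from different mice, so every tissue has 24 libraries per treatment. The unit is TPM, the share of a transcript in the library, which is scaled to transcript length and so allows levels of different genes to be compared. It is relative to all RNA in the library, and in whole tissue fewer cells of a type and less RNA per cell cannot be told apart.

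Purkinje cells are the large GABAergic output neurons of the cerebellar cortex. Granule cells are small glutamatergic neurons, far more numerous, whose parallel fibres synapse on Purkinje cell dendrites. At that synapse cerebellin 1 from the granule cell binds presynaptic neurexin and links it to the Purkinje cell. In the Purkinje cell, metabotropic glutamate receptor mGluR1 acts through phospholipase C to open the IP3 receptor, and the calcium that is released is buffered by calbindin. Purkinje cells are known for their sensitivity to loss of oxygen.

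In the mouse genome (GRCm38) Pcp2 spans 2.17 kb on the minus strand of chromosome 8 and overlaps Pet100 on the other strand. Cbln1 lies on the same chromosome, Calb1 and Car8 on chromosome 4, and Cbln3 and Zic2 on chromosome 14. Itpr1 is the longest of the genes, with 338 kb on chromosome 6 and 62 exons in its longest transcript. Zic1 on chromosome 9 overlaps Zic4 on the opposite strand. The libraries were strand-specific, but whether the quantification used the strand to separate such pairs is not stated. The RefSeq table of upstream sequences held 5 of the 10 genes. The 250 bases before the start listed there are shown for 2 genes of each class, with capitals at 4 short motifs searched on both strands. They are AGGTCA (the half-site of the ROR receptors), CAGCTG and CAGATG (E-boxes, bound by NeuroD-type factors) and GGGCGG (the GC box), where neighbouring GC boxes may run together.
Pcp2, chr8:3625548-3625797, minus strand, most upstream of 4 listed starts: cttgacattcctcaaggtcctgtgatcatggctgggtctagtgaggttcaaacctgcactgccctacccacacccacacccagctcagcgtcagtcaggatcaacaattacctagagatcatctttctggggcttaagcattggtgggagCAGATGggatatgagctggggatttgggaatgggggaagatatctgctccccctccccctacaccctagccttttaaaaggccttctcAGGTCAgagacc
Slc1a6, chr10:78780246-78780495, plus strand: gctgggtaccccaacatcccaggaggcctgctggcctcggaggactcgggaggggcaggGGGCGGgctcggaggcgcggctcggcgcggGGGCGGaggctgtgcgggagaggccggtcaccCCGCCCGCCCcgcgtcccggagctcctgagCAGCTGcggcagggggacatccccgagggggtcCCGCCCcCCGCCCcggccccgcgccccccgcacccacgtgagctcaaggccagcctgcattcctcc
Cbln3, chr14:55884257-55884506, minus strand: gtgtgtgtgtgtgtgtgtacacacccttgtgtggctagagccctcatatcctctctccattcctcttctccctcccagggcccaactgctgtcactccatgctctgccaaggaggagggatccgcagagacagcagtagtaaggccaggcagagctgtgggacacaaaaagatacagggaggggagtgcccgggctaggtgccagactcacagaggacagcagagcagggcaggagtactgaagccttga
Neurod1, chr2:79456637-79456886, minus strand: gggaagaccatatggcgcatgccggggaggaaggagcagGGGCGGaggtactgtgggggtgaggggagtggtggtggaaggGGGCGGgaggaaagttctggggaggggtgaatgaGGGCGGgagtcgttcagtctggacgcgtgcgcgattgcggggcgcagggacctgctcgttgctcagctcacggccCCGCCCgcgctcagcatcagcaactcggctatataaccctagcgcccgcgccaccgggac
The Pcp2 sequence held AGGTCA 12 bases before the start and CAGATG 100 bases before it. AGGTCA was present in 14.0% of the 32851 sequences of the table, CAGCTG in 13.0%, CAGATG in 14.4% and GGGCGG in 32.7%. The Slc1a6 sequence held CAGCTG and 6 matches to the GC box, and the Neurod1 sequence 4 matches to the GC box. In Cbln3 none of the 4 motifs was found in this window. The GC content was 52.8% for Pcp2, 57.6% for Cbln3, 67.6% for Neurod1 and 78.8% for Slc1a6. Of the 4 motifs only the GC box, the most frequent of them in the table, was found in a gene of each class. Shared regulation was not tested. By the gene positions used here, Neurod1 begins at 79456751 and Cbln3 at 55884392, both on the minus strand. Part of each of these windows therefore lies inside the gene.

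Some cerebellum libraries stood apart before any comparison. IH replicate 3 at 1:30 correlated least with the other cerebellum libraries (mean r = 0.766 across genes). In it the single transcript Gm19220 took 45.4% of all TPM, against a median of 5.53% in normoxia and 3.49% after IH. The next lowest mean r was 0.857 for IH replicate 1 at 1:30 and 0.858 for normoxia replicate 1 at 7:30. Neither of these was left out by itself, as IH replicate 3 at 1:30 was. Transcripts of heart muscle were present in every cerebellum library, with Myh6 (cardiac myosin heavy chain) between 7.94 and 1501 TPM. It exceeded 300 TPM in 10 libraries, 7 in normoxia and 3 after IH, and all 10 belonged to the time points from 1:30 to 10:30. The limit of 300 TPM was set after the values had been seen, and results are also given without these libraries. They include every normoxia library at 4:30 and no IH library at 4:30. Without them, normoxia and IH are thus not balanced in time. The summed level of the 10 markers of liver, lung, kidney, muscle and heart ranged from 20.4 to 2879 TPM in normoxia (median 287) and from 47.6 to 3045 TPM after IH (median 181). Of these 10 markers only Umod was at 0 in any cerebellum library, in 3 of 48. The sum of 2879 TPM came from normoxia replicate 3 at 19:30, with 1982 TPM of Ckm and 676 TPM of Acta1, both muscle transcripts. Its Myh6 was 172 TPM, so this library was kept when those above 300 TPM were left out.

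All 5 Purkinje cell markers were detected in every cerebellum library, and their IH and normoxia values overlapped. Pcp2, a modulator of G protein signalling found almost only in Purkinje and retinal bipolar cells, was the most abundant. In normoxia it ranged from 519 TPM over a median of 1583 to 2847 TPM, and after IH from 124 over 1957 to 2515 TPM. Both lowest values came from libraries whose joint level of the 10 genes was among the 3 lowest of the 48, IH replicate 3 and normoxia replicate 2 at 1:30. Calb1, the calcium buffer calbindin, ranged from 163 over 391 to 637 TPM in normoxia and from 76.8 over 350.1 to 759 TPM after IH. Car8, a carbonic anhydrase relative that binds the IP3 receptor, ranged from 192 over 514 to 735 TPM in normoxia and from 37.9 over 469.9 to 768 TPM after IH. The medians of these 2 genes stood slightly lower after IH, that of Pcp2 higher. Itpr1, the IP3 receptor itself, ranged from 43.2 over 109 to 368 TPM in normoxia and from 27.9 over 106 to 900.1 TPM after IH. Slc1a6, the glutamate transporter EAAT4 of Purkinje cell spines, ranged from 22.3 over 56.7 to 124 TPM and from 5.54 over 68.8 to 133 TPM. By median the order of levels in normoxia was Pcp2, Car8, Calb1, Itpr1 and Slc1a6, where the ranges of Car8 and Calb1, and of Itpr1 and Slc1a6, overlapped widely.

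The 5 granule cell markers showed the same overlap. Cbln1 was the highest of them, with 232, 522 and 905 TPM as lowest, median and highest value in normoxia and 35.1, 593 and 999 TPM after IH. Cbln3, a family member that is secreted together with Cbln1, ranged from 93.0 over 194 to 432 TPM in normoxia and from 27.7 over 200.1 to 588 TPM after IH. Neurod1, a helix-loop-helix factor of granule cell differentiation, varied least across the 48 libraries (SD 0.60 on the log2 scale). It ranged from 88.1 over 186 to 274 TPM in normoxia and from 39.3 over 179.6 to 300.2 TPM after IH. Zic1 and Zic2 are zinc-finger factors of granule cells and their precursors. Zic1 ranged from 85.7 over 177 to 387 TPM in normoxia and from 57.4 over 172 to 658 TPM after IH, and Zic2 from 46.5 over 99.4 to 209.8 TPM and from 4.75 over 94.7 to 274 TPM. The 3 lowest joint levels of the 10 genes came from IH replicate 3 at 1:30, IH replicate 1 at 10:30 and normoxia replicate 2 at 1:30.

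**Figure D1:**
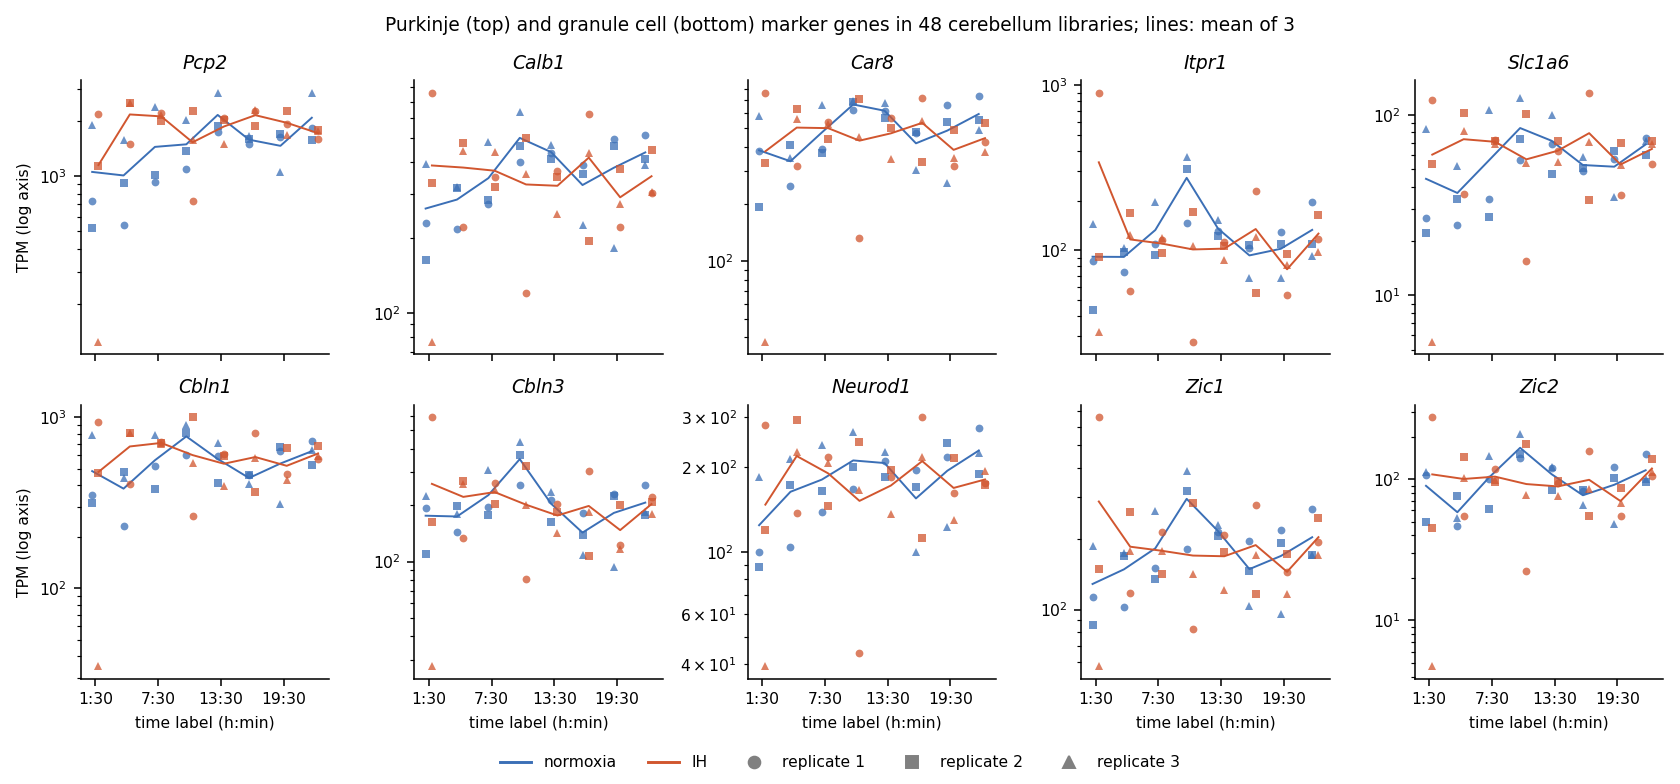
TPM (log axis) of the 10 genes in the 48 cerebellum libraries against the time label, normoxia in blue and IH in red, with a marker shape per replicate number and lines through the mean of 3. Values of both treatments overlap in every panel, and the low point at 1:30 in all panels is IH replicate 3, with 124 TPM of Pcp2 and 4.75 TPM of Zic2.

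None of the 10 genes differed between IH and normoxia in the cerebellum by limma (adjusted p of 0.05 with at least 1.5-fold), while 2.64% of the 14892 genes tested did. At an unadjusted p under 0.05 the number was also 0 of 10, and 30.3% of all genes. On the log2 scale of scaled TPM + 0.5, Pcp2 had the largest difference, 0.24 ± 0.19 higher after IH (SE, 24 libraries per group, limma adjusted p = 0.395), with a 95% interval of the fold from 0.913 to 1.53. Slc1a6 differed by 0.10 ± 0.18 (fold interval 0.832 to 1.38) and Cbln1 by 0.02 ± 0.16 (0.809 to 1.26). The other 7 genes had a value below 0. Zic2 differed by -0.22 ± 0.19 and Car8 by -0.21 ± 0.16, with fold intervals of 0.662 to 1.11 and 0.697 to 1.07. Itpr1 followed with -0.17 ± 0.18, Calb1 with -0.12 ± 0.13, Cbln3 with -0.11 ± 0.13, Neurod1 with -0.09 ± 0.13 and Zic1 with -0.03 ± 0.12. All these intervals include no difference, and that of Pcp2 alone reaches past 1.5-fold upwards, while that of Zic2 reaches below a 1.5-fold fall. The median difference was -0.12 over the Purkinje markers and -0.09 over the granule cell markers, beside -0.006 over all genes tested. Without the 10 libraries above 300 TPM of Myh6, 0 of 10 genes were called, as against 1.26% of all genes, and the differences lay between -0.14 for Itpr1 and 0.20 for Pcp2.

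The differences varied between replicate numbers, but not beyond the threshold of a test. Pcp2 in normoxia had a median of 1294 TPM in replicate 1, 1473 TPM in replicate 2 and 1959.9 TPM in replicate 3, and after IH 2001 TPM, 2001 TPM and 1716 TPM (n = 8 each). The normoxia libraries of replicates 1 and 2 were thus low and those of replicate 3 high, and the IH libraries differed less. Pcp2 was 0.55 higher after IH on the log2 scale within replicate 1, 0.59 higher within replicate 2 and 0.41 lower within replicate 3 (-0.41). Slc1a6 gave 0.24, 0.58 and -0.52, and Cbln1 0.17, 0.33 and -0.44. Within replicate 3 all 10 genes had a value below 0, from -0.20 for Calb1 to -0.53 for Zic2, where the median over all genes was -0.02. The library of IH replicate 3 at 1:30 carried much of this. Without it the 10 values within replicate 3 lay between -0.031 for Pcp2 and -0.29 for Itpr1, with -0.039 for Calb1, -0.13 for Zic2 and -0.27 for Zic1. A test of the interaction of treatment and replicate number in limma called 0 of the 10 genes, with 3.67% of all genes called. Pcp2 and Slc1a6 came closest, with unadjusted p = 0.0486 and p = 0.0418 (limma adjusted p = 0.251 and 0.235, 24 libraries per treatment). They were the only 2 of the 10 genes under 0.05 before adjustment, and the share of all genes under it in this test was not counted. Without IH replicate 3 at 1:30 their unadjusted p was 0.136 and 0.105 in the same limma test. Without replicate 3 the Pcp2 difference was 0.56 (limma adjusted p = 0.0112), which lies under 1.5-fold. Without the IH library of replicate 3 at 1:30 alone it was 0.36, 0 of the 10 genes were called, and 5.22% of all genes were. Of the 7 normoxia libraries above 300 TPM of Myh6, 4 belonged to replicate 1, 2 to replicate 2 and 1 to replicate 3. The 3 IH libraries above this limit were replicates 2 and 3 at 1:30 and replicate 1 at 10:30. Within replicate 3, leaving out the libraries above 300 TPM took the Pcp2 difference from -0.41 to -0.07. These include IH replicate 3 at 1:30, which alone took it to -0.031. Within replicate 1 the Pcp2 difference went from 0.55 to 0.17, while in replicate 2 it stayed at 0.57. A part of heart transcripts in this pattern was not tested.

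**Figure D2:**
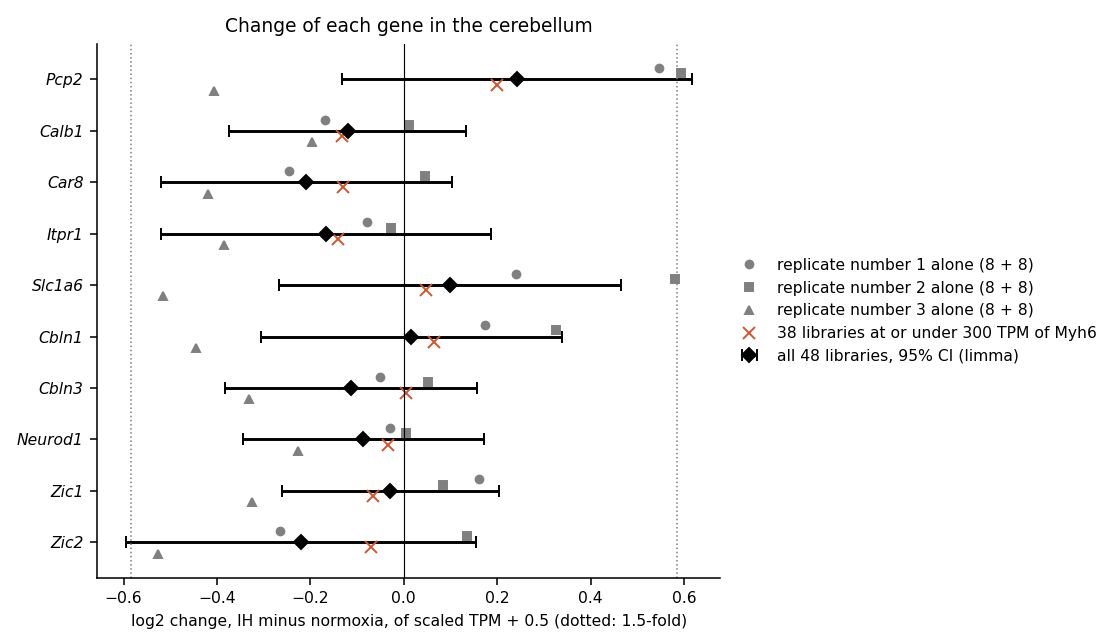
Log2 difference of IH minus normoxia in the cerebellum for each gene, with the 95% interval of all 48 libraries (diamonds), the values within each replicate number (grey, 8 libraries per treatment) and the value of the 38 libraries at or under 300 TPM of Myh6 (crosses). Every interval crosses 0. The triangles of replicate 3 lie below 0 for all 10 genes, and without the single library of IH replicate 3 at 1:30 that of Pcp2 would move from -0.41 to -0.031.

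Other genes of the same cells were read from lists. Of 16 further Purkinje cell markers 0 were called, and their median difference was 0.009. Homer3, a scaffold that ties mGluR1 to the IP3 receptor, had the largest positive value, 0.49 ± 0.18 (limma adjusted p = 0.0530), and Foxp2 the largest negative, -0.53 ± 0.20 (limma adjusted p = 0.0614). Of 16 further granule cell markers, Grin2c alone was called. This NMDA receptor subunit of mature granule cells rose from 41.2 ± 20.6 to 65.1 ± 36.7 TPM (SD, n = 24), a log2 difference of 0.61 ± 0.18 (limma adjusted p = 0.0147), and their median difference was 0.17. Grin2c was not called without replicate 1 (0.33), without replicate 2 (0.39) or without the libraries above 300 TPM of Myh6 (0.48), and was 1.11 without replicate 3. Without replicate 3, 5 of the 16 further granule cell markers and 3 of the 16 further Purkinje cell markers were called, with 13.1% of all genes called. Without IH replicate 3 at 1:30 alone, Grin2c (0.70), Slc17a7 and, downwards, Foxp2 (-0.62) were called. Slc17a7, the vesicular glutamate transporter of parallel fibres, differed by 0.57 ± 0.20 and passed the adjusted p but not the fold, as did Rbfox3 (0.51), Barhl1 (0.43) and Neurod2 (0.33). Gabra6 and Calb2 had the largest negative values, -0.35 and -0.16. Of the 7 genes of the cerebellin synapse 0 were called (median -0.05). Nrxn2, a presynaptic partner of cerebellin, had 0.48 ± 0.13 there, under 1.5-fold, or 0.80 and called without replicate 3. In the pathway from mGluR1 to the IP3 receptor 0 of 11 genes were called (median -0.11), with 0.24 ± 0.10 for Stim1, the calcium sensor of the endoplasmic reticulum, and -0.28 ± 0.17 for the calcium channel Ryr1, and Homer3 (0.90) was called without replicate 3. None of the lists of cerebellar interneurons, oligodendrocytes, astrocytes and Bergmann glia, microglia, endothelium, choroid plexus, forebrain neurons, brainstem, erythroid cells and other organs held a called gene. Medians of these lists ran from -0.51 for the markers of other organs and -0.34 for choroid plexus to -0.01 for microglia. Some of their genes passed the adjusted p without the fold, as did 15.0% of all genes. Of the 7 microglia markers 3 did so, all upwards (C1qa 0.56, Tmem119 0.42 and C1qb 0.39), as did the endothelial marker Cldn5 (0.54). The interneuron markers Ptprk (-0.48) and Gad1 (-0.50), of which Purkinje cells also express the latter, and the forebrain marker Neurod6 (-0.27) did so downwards.

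The 10 genes rose and fell together from library to library. Their joint level, the mean of log2(TPM + 0.5), ran from 0.13 to 2.39 times that of the median library. IH replicate 1 at 1:30 stood at the top, with 900.1 TPM of Itpr1, 588 TPM of Cbln3, 658 TPM of Zic1 and 274 TPM of Zic2, each the highest of the 48. The lowest was IH replicate 3 at the same time point, so that both extremes came from 1 group of 3. Summed over 5 genes, the Purkinje markers ranged from 939.8 to 4244 TPM in normoxia and from 277 to 4726 TPM after IH, and the granule cell markers from 628 to 2200.0 TPM and from 164 to 2735 TPM. The ratio of the Purkinje to the granule cell sum varied far less, with 2.13 ± 0.45 in normoxia and 2.30 ± 0.37 after IH (SD, n = 24).

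Across the 48 libraries the 45 pairs of genes had Pearson correlations of log2(TPM + 0.5) between 0.537 (Pcp2 and Itpr1) and 0.948 (Car8 and Zic2), with a median of 0.876 and a median Spearman correlation of 0.854. The medians were 0.861 within the Purkinje markers, 0.851 within the granule cell markers and 0.883 between them. Without the 2 libraries farthest from the median level the median was 0.834. On scaled TPM it was 0.759 over all 48 libraries and 0.689 without these 2. These values are a description, because all genes of a library share its TPM scale. Over the 10282 other genes of at least 5 TPM the median correlation was 0.642 with the Purkinje markers and 0.669 with the granule cell markers. The genes outside the lists whose pattern over the 48 libraries was most like the mean of the Purkinje markers were Ptprr (r = 0.967), Syndig1 (0.964) and Prmt8 (0.963). For the granule cell markers they were Nptx1 (0.974), Pxylp1 (0.973) and Cnksr3 (0.969).

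Measured against the mean of all 10, Pcp2 departed most. Its SD over the 48 libraries fell from 0.78 to 0.42 on the log2 scale when the joint level was subtracted, while that of Calb1 fell from 0.62 to 0.18. Relative to the joint level Pcp2 stood 2.60 ± 0.40 higher in normoxia and 2.90 ± 0.39 higher after IH (SD, n = 24), a difference of 0.30 ± 0.12 (SE). The value was 0.23 without the libraries above 300 TPM of Myh6 and -0.031 within replicate 3. For Slc1a6 the difference was 0.16 ± 0.07, which was 0.073 without those libraries and -0.13 within replicate 3. For Car8 it was -0.15 ± 0.05 and for Zic2 -0.16 ± 0.09, and -0.11 and -0.044 without those libraries. These differences were not tested. The ratio of Pcp2 to Calb1 had a median of 3.74 in normoxia and 5.65 after IH, with ranges of 2.48 to 7.31 and 1.62 to 9.67. By replicate number its median in normoxia was 3.35, 3.61 and 5.35, and after IH 5.86, 5.49 and 5.45. The normoxia libraries of replicates 1 and 2 were therefore the low ones. The ratio was also low where Myh6 was high, with a median of 3.29 in the 10 libraries above 300 TPM and 5.09 in the other 38. Among those 38 it was 3.97 in normoxia and 5.65 after IH.

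Levels of the 10 genes, in TPM as deposited, were lower in the libraries with most Myh6. In the 10 libraries above 300 TPM of Myh6, Pcp2 had a median of 923 TPM and in the other 38 of 1878 TPM, Slc1a6 30.5 and 68.9 TPM, Calb1 278 and 391 TPM, and Cbln1 411 and 622 TPM. All 10 genes had the lower median in the libraries with more Myh6, and the share of all genes that did so was not counted. All 10 libraries above 300 TPM lay at 1:30 to 10:30, and 7 were in normoxia. Time and treatment therefore differ between the sets as well. Gm19220, whose share leaves less TPM for all other genes, took 45.4% in IH replicate 3 at 1:30. It took 18.4% and 14.9% in normoxia replicate 1 at 1:30 and 4:30, and 14.3% in IH replicate 1 at 10:30. Among the other 38 libraries it took 25.4% in IH replicate 2 at 7:30 and 24.1% in normoxia replicate 3 at 16:30. The range of the joint level was 0.13 to 1.09 times the median library in these 10 libraries. The part of heart transcripts or of Gm19220 in the differences between libraries was not tested.

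**Figure D3:**
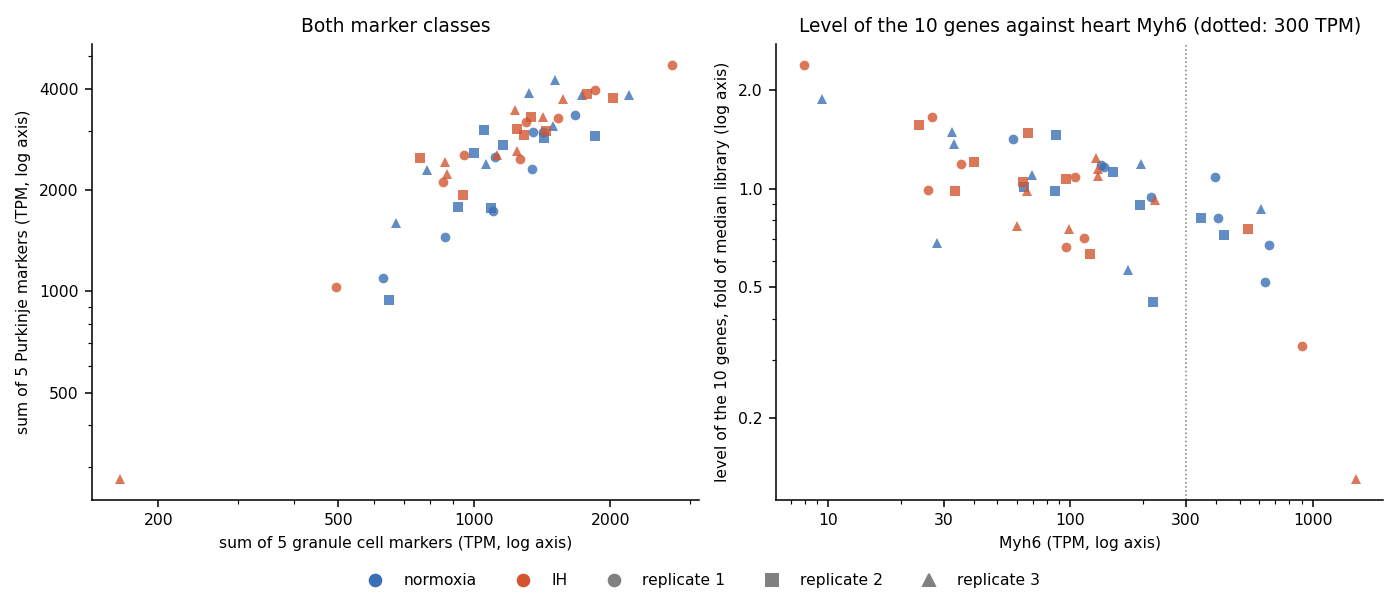
Left, the summed TPM of the 5 Purkinje markers against that of the 5 granule cell markers (both log axes) in the 48 cerebellum libraries. Right, the joint level of the 10 genes as a fold of the median library against Myh6 TPM (both log axes), with a dotted line at 300 TPM, where the 10 libraries to the right of the line reach at most 1.09.

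At single time points 3 of the 80 pairs of gene and time point had 3 IH values that did not overlap the 3 normoxia values. Over all genes tested 13.7% of such pairs did, both on TPM as deposited. At 16:30 Pcp2 had 2259, 1879 and 2301 TPM after IH and 1503, 1585 and 1643 TPM in normoxia, so that IH was higher on this scale. Normoxia replicate 3, with 1643 TPM, had 24.1% of its TPM in Gm19220 and a size factor of 0.768. The size factor of IH replicate 1, with 2259 TPM, was 1.16. Divided by these factors the 2 values change order, so the treatments overlap on scaled TPM. At 13:30 Calb1 had 368, 349 and 249.6 TPM after IH and 437, 412 and 469 TPM in normoxia, and Itpr1 was also lower after IH, with at most 113 TPM against at least 122 TPM. The mean of Itpr1 ranged over the day from 91.1 TPM at 4:30 to 274 TPM at 10:30 in normoxia. None of the 10 genes fitted a 24-hour cosine at an adjusted p of 0.05 in either treatment, where 0.0% of 20732 genes did in normoxia and 0.00541% of 18496 after IH, which is 1 gene. At an unadjusted p under 0.05 the cosine gave 0 of the 10 genes in both treatments, and 19.4% of all genes in normoxia and 1.72% after IH. In normoxia this number changed with the replicates used and with the scale. Without replicate 3 it was 5 of 10 (Pcp2, Calb1, Slc1a6, Neurod1 and Car8, with 19.2% of all genes), where Pcp2 had an unadjusted p of 0.000237 (adjusted p = 0.251) in the F test over 16 libraries and an amplitude of 41.9% of its mean against 22.4% with all 3 replicates. Without replicate 1 it was 3 of 10 (Itpr1, Zic1 and Cbln3, with 18.1% of all genes). With all replicates the smallest unadjusted p of the F test on TPM was that of Itpr1 in normoxia, 0.0685. Its amplitude was 48.6 TPM around 132 TPM. The same cosine in limma on log2 of scaled TPM gave unadjusted p = 0.0204 for Pcp2 and 0.0446 for Itpr1 in normoxia. Their limma adjusted p was 0.188 and 0.225, and the share of all genes under 0.05 before adjustment was not counted. At the adjusted p that fit gave 0 of 10 genes, and over all genes 0 of 20732 in normoxia and 2 of 18496 after IH. The rank test (JTK) also gave 0 of 10 genes, and over all genes 0 of 20732 in normoxia and 1 of 18496 after IH. Without the libraries above 300 TPM of Myh6, which lie at the first 4 time points, 0 of 10 genes passed. Over all genes 0 of 17010 passed in normoxia and 1 of 17064 after IH. Normoxia then had no library at 4:30 and only replicate 3 at 7:30. The smallest adjusted p of the F test was 0.0941, for Itpr1 in normoxia. There 4 genes (Itpr1, Cbln3, Zic1 and Slc1a6) were under 0.05 before adjustment, as were 29.3% of all genes.

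Across tissues, 9 of the 10 genes were higher in the cerebellum than in each of the other 5 tissues in normoxia (adjusted p of 0.05 and 1.5-fold in limma), as were 21.0% of the 18080 genes tested. Taken one tissue at a time, all 10 were higher than in heart (54.9% of all genes), liver (61.9%), muscle (47.3%) and lung (31.4%), and 9 higher than in kidney (43.4%). For 8 genes the lowest cerebellum value in normoxia lay above the highest of the 120 libraries of other tissues, which held for 9.07% of all genes. Pcp2, Slc1a6, Cbln1, Cbln3, Neurod1, Zic1 and Zic2 were close to 0 outside the cerebellum. In normoxia their highest value elsewhere was 1.51 TPM, for Pcp2 in muscle, and at most 0.790 TPM for the other 6. The log2 difference of the cerebellum from each tissue was 10.85 to 11.33 for Pcp2, 9.47 to 10.01 for Cbln1 and 6.34 to 6.65 for Slc1a6.

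Calb1, Car8 and Itpr1 were also expressed in other tissues. Calb1 ranged from 168 over 266 to 348 TPM in kidney, where calbindin serves calcium transport in the distal tubule. Its cerebellum level in normoxia was 0.45 ± 0.09 higher on the log2 scale (limma adjusted p = 4.43e-06), less than 1.5-fold, and the ranges overlapped. With median-of-ratios scaling the difference was 0.06 (limma adjusted p = 0.531). In the other 4 tissues Calb1 stayed under 1 TPM in normoxia. Car8 fell in the order cerebellum, lung (median 50.6 TPM), liver (26.8 TPM), heart (11.2 TPM), muscle (5.06 TPM) and kidney (2.71 TPM), and the ranges of lung and liver and of muscle and kidney overlapped. Itpr1 followed another order, with 109 TPM in cerebellum, 55.1 TPM in kidney, 28.9 TPM in lung, 10.4 TPM in muscle, 7.55 TPM in liver and 7.25 TPM in heart. The last 3 did not separate beyond their ranges, and the cerebellum and kidney ranges overlapped as well.

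**Figure D4:**
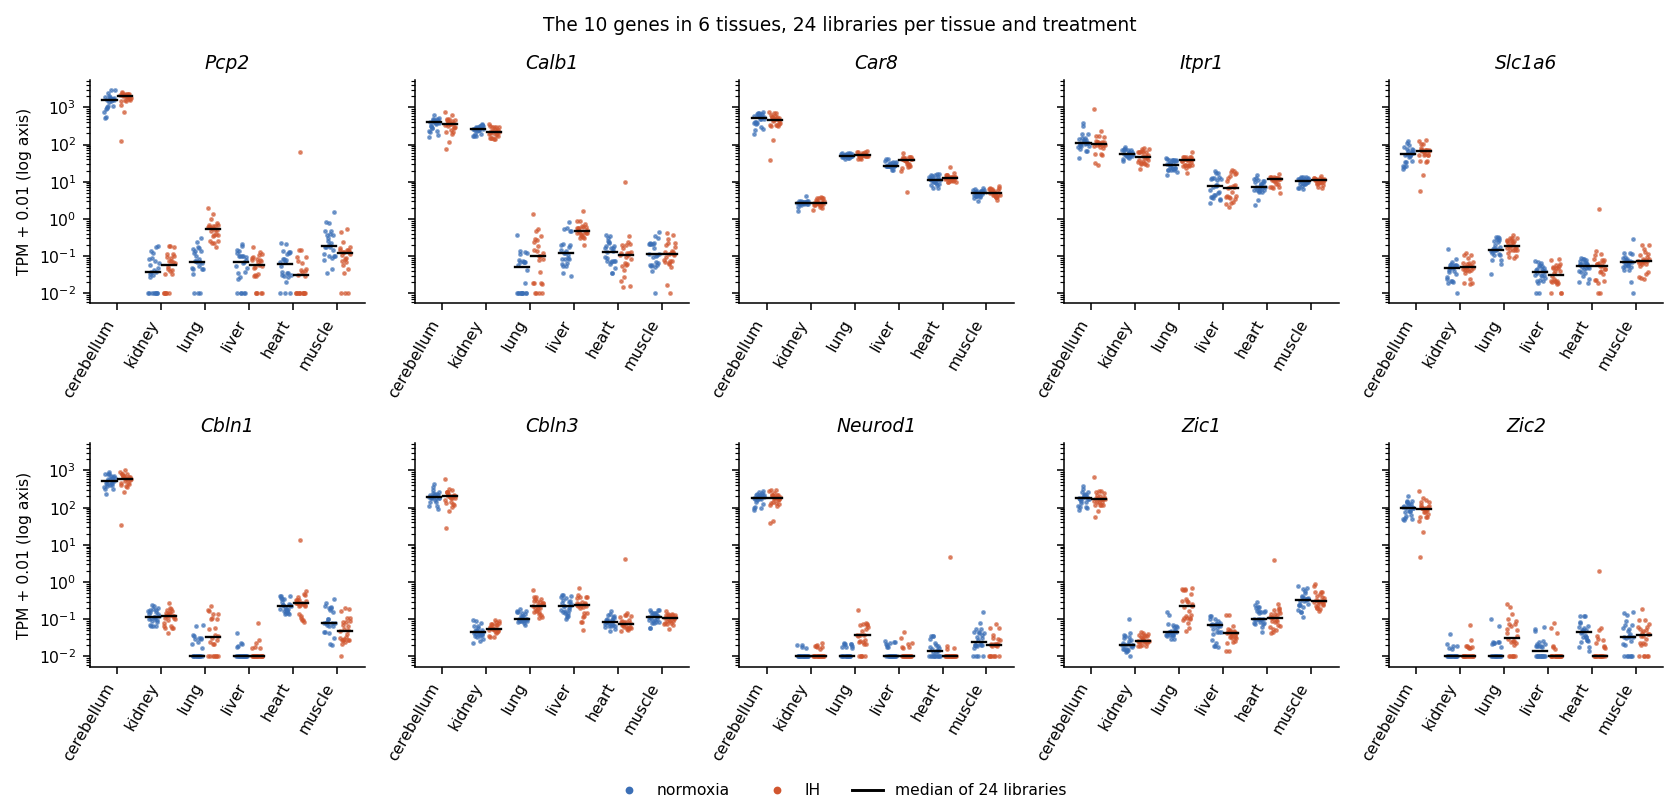
TPM + 0.01 (log axis) of the 10 genes in 6 tissues, 24 libraries in normoxia (blue) and 24 after IH (red) each, with black lines at the medians. Calb1 is as high in kidney as in cerebellum to within a log2 difference of 0.45, Car8 and Itpr1 are present in all tissues, and a single heart library stands out after IH.

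Outside the cerebellum, 12 pairs of gene and tissue passed the filter of 1 TPM and none was called, with 13.48% of genes called in lung, 3.65% in liver, 2.95% in heart, 0.783% in kidney and 0.374% in muscle. At an unadjusted p under 0.05 in limma 5 of the 12 differed, where the share of all genes was 72.6% in lung, 52.0% in heart, 37.0% in liver, 33.0% in kidney and 23.9% in muscle. At the adjusted p without the fold 4 of the 12 differed, beside 70.4% of all genes in lung, 45.2% in heart, 24.2% in liver, 19.8% in kidney and 10.4% in muscle. Itpr1 in heart ranged from 2.42 over 7.25 to 14.8 TPM in normoxia and from 5.08 over 11.7 to 16.6 TPM after IH, a log2 difference of 0.37 ± 0.10 (limma adjusted p = 0.0014). It was 0.74 within replicate 1, 0.15 within replicate 2 and 0.26 within replicate 3. Car8 in liver ranged from 20.2 over 26.8 to 41.5 TPM in normoxia and from 5.28 over 38.8 to 58.3 TPM after IH, a difference of 0.33 ± 0.12 (limma adjusted p = 0.0392) that was 0.02 within replicate 3. Itpr1 in kidney had 55.1 TPM as median in normoxia and 46.2 TPM after IH, a difference of -0.27 ± 0.09 (limma adjusted p = 0.0358), and Calb1 there 266 and 216 TPM, -0.21 ± 0.08 (limma adjusted p = 0.0689). Without replicate 2 both kidney differences were -0.07 and -0.08. Car8 in lung had medians of 50.6 and 50.7 TPM. Its scaled difference of -0.26 ± 0.05 (limma adjusted p = 3.43e-05) became 0.04 on TPM as deposited, a change of scale that moved the median of all lung genes from -0.08 to 0.21.

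In lung, Itpr1 moved in opposite directions by replicate number. In replicate 1 it ranged from 31.5 to 42.6 TPM in normoxia and from 17.6 to 38.7 TPM after IH. In replicate 3 it ranged from 18.7 to 29.3 TPM in normoxia and from 37.6 to 63.3 TPM after IH. The log2 differences were -0.63 within replicate 1, 0.01 within replicate 2 and 0.67 within replicate 3, and 0.03 over all. The interaction of treatment and replicate number in lung, a test added after the data had been seen, gave a limma adjusted p of 2.54e-06 for Itpr1, in a tissue where 50.2% of all genes were called by it. It also called Itpr1 in kidney (limma adjusted p = 0.0124, 26.4% of genes called) and in muscle (limma adjusted p = 0.0284, 9.14% of genes called), and called neither Itpr1 nor Car8 in liver (17.0% of genes called) and heart (0.0%).

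A single heart library held cerebellar transcripts. In IH replicate 2 at 10:30, Pcp2 was 62.5 TPM, whereas the other 47 heart libraries reached at most 0.213 TPM. Cbln1 was 13.8 TPM (at most 0.572 elsewhere), Calb1 10.0 TPM (0.369), Neurod1 4.67 TPM (0.0257), Cbln3 4.14 TPM (0.159), Zic1 4.00 TPM (0.289), Zic2 2.00 TPM (0.115) and Slc1a6 1.82 TPM (0.126). Car8, which heart tissue has itself, was 25.1 TPM, above the other 47 libraries, and Itpr1 with 10.3 TPM lay inside their range. Less the median of the other heart libraries, the amount was a share of the cerebellum median that ran from 2.06% for Zic2 to 3.64% for Pcp2, apart from 0.779% for Itpr1. Of all 35904 genes, 2.65% had their highest heart value in this library. Among other cerebellar markers 8 of 16 further Purkinje, 13 of 16 further granule cell and 9 of 10 oligodendrocyte markers did so, with median shares of 2.45%, 2.99% and 2.10%. Without this library Pcp2 no longer reached a mean of 1 TPM in heart, and the Itpr1 difference was 0.37.

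**Figure D5:**
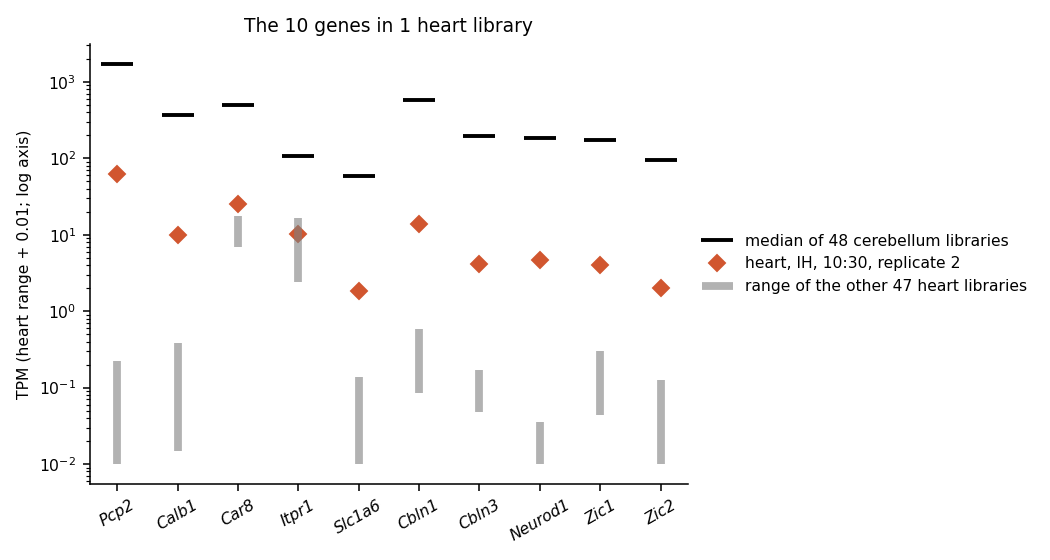
TPM (log axis) of the 10 genes in the heart library of IH replicate 2 at 10:30 (diamonds), the range of the other 47 heart libraries (grey bars) and the median of the 48 cerebellum libraries (black). For 9 of the 10 genes the diamond lies above the grey bar, at a similar distance under the cerebellum median.

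Low values of these genes were also seen in lung. Summed over the 7 genes that are near 0 outside the cerebellum, lung libraries had a median of 0.451 TPM in normoxia (0.201 to 0.548). After IH the median was 1.21 TPM (0.570 to 4.00). These are sums of TPM as deposited, and how many lung genes separated to this degree was not counted. Of the genes averaging at least 1 TPM in lung, 70.4% differed at the limma adjusted p without the fold, on scaled TPM. That set leaves out these 7 genes, so its share is no background for their sums. Pcp2 had a median of 0.0612 TPM in normoxia and 0.529 TPM after IH, with 1.90 TPM as the highest value. In heart, liver, kidney and muscle the medians of this sum lay between 0.258 and 0.814 TPM in both treatments. These genes were under the filter of 1 TPM in lung and were not tested there, apart from the fit without a filter.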

How the data were processed

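RNA of 6 tissues was measured at 8 time points and 3 replicates per treatment, as strand-specific poly(A) libraries. The authors quantified reads with Kallisto against the Ensembl mouse transcriptome (mm10 per the labels) and deposited TPM of 35904 genes per library. They ran DESeq2 on estimated counts, which are not used here. Each deposited library sums to between 989211 and 999188 TPM, which gives no read count, so the depth of a library and the counting precision are unknown. Tissue and treatment of a column were taken from the table it stands in.

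Linear models were fitted in R 4.3.3 (limma 3.58.1). All other steps used Python 3.11.15 (scipy 1.17.1, pandas 2.3.3, numpy 2.4.6), and figures matplotlib 3.10.9. For IH against normoxia, libraries of a tissue were put on 1 scale by median-of-ratios size factors, and log2(scaled TPM + 0.5) was fitted for genes averaging 1 TPM or more in limma with treatment as the only term and an intensity trend. A gene was called at a Benjamini-Hochberg adjusted p of 0.05 over all genes tested and a 1.5-fold change, 2-sided. Rhythm was an F test of a 24-hour cosine on TPM, per treatment, for genes that reached 1 TPM in any library. The 6 tissues were compared in the 144 libraries in normoxia on log2(TPM + 0.5) in 1 limma fit. The methods were tested on simulated data.

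The members, the marker lists and the tests were chosen with earlier results of these data known. Named besides the members were, per marker list, up to 2 genes with the largest log2 change in each direction. Also named were the 3 genes outside the lists that were most correlated with each class, and genes that a result turned on. The last (Myh6, Ckm, Acta1, Gm19220 and list genes past the adjusted p alone) were chosen after their values were seen. Same-numbered IH and normoxia cerebellum libraries of a time point were checked for shared deviations from their group means. The correlation was above 0.1 in 7 of 24 such pairs (median 0.0019), so the numbers were not taken to pair libraries. Gene positions are those of GENCODE mouse release M21 and upstream sequences those of RefSeq, both on GRCm38, the build of mm10. Alternatives were other scaling, pseudocounts, filters and terms, a rank test of rhythm, a replicate block, and leaving out replicate numbers, time points or libraries. The result of 1 further gene is not reported here.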

Additional observations from a re-analysis of the deposited data

Results flagged for a closer look

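The difference of Itpr1 between IH and normoxia was not the same in the 3 replicate numbers of lung, kidney and muscle, in a limma test of the interaction that was added after the data had been seen. In lung the limma adjusted p was 2.54e-06, with log2 differences of -0.63, 0.01 and 0.67 in replicates 1, 2 and 3. In kidney it was 0.0124, with -0.21, -0.66 and 0.07. In muscle it was 0.0284, with -0.26, 0.02 and 0.09. The same test called 50.2% of all genes in lung, 26.4% in kidney and 9.14% in muscle, so that Itpr1 was 1 of many.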

How the results depend on the processing

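In the cerebellum the count of called genes stayed at 0 of 10 under all alternatives, which included TPM as deposited, pseudocounts of 0.1 and 1, other filters, a time point term, a term for genes detected, the replicate block (0 of 10), and leaving out replicate numbers, time points or libraries. The counts of rhythmic genes (0) and of genes with a change by replicate number in the cerebellum (0) did not move either, nor did that of genes higher in the cerebellum than in each other tissue (9 of 10, also with the replicate block). Counts over all genes moved more. Against 393 genes called between IH and normoxia, 1973 were called without replicate 3, 776 without IH replicate 3 at 1:30, 181 without the libraries above 300 TPM of Myh6 (chosen after seeing the data) and 365 with the replicate block, and against 547 genes with a change by replicate number, 106 were called on TPM as deposited. Outside the cerebellum the count went from 0 to 2 without a filter on low values, for Calb1 in liver and Pcp2 in lung, both with medians under 1 TPM. Of the single differences recomputed, 305 kept their direction and 24 changed sign, all of values that were not called. Cbln1 in the cerebellum became -0.071 without the time point at 4:30, -0.068 without 7:30, -0.010 without 16:30 and -0.047 with a term for genes detected. Slc1a6 became -0.0029 without 7:30 and -0.070 with that term, Itpr1 0.0012 without 10:30, Zic1 0.048 without 10:30 and 0.037 without 13:30, and Cbln3 0.0051 without the libraries above 300 TPM of Myh6. On TPM as deposited, Itpr1 in liver became -0.094, Car8 in lung 0.039, and in muscle Car8 0.067 and Itpr1 0.044. Leaving out replicate numbers gave a range of -0.13 to 0.24 for Cbln1, -0.13 to 0.40 for Slc1a6 and -0.12 to 0.11 for Zic1 in the cerebellum. It gave -0.054 to 0.16 for Car8 in heart, -0.022 to 0.14 for Car8 in kidney, -0.078 to 0.12 for Itpr1 in liver, -0.30 to 0.35 for Itpr1 in lung, -0.077 to 0.049 for Car8 in muscle and -0.12 to 0.054 for Itpr1 in muscle. The cause was not tested. No depth is known, so values near 0 carry no counting interval.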
